A study of Mus musculus with 24 samples.

Results

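Cyp21a1, the genes that flank it in the complement C4 locus and the genes of adrenal steroid synthesis were followed through 24 mouse liver RNA-seq libraries. The 8 genes, of 24411 in the count tables, were taken by symbol: Cyp21a1, C4a, C4b and Tnxb of the locus, and Star, Cyp11a1, Cyp17a1 and Cyp11b1, which act beside Cyp21a1 in steroid synthesis. They were chosen by the Cyp21a1 counts in the control pool at 48 h after acetaminophen (APAP), the highest of that gene, and by place or pathway beside it. The APAP levels of Cyp21a1 are therefore given as a description, with no test. The mice were male, 2.5 months old and fasted for about 16 h. In the LKO cohort, LKO mice carried Alb-Cre and floxed E2f7 and E2f8, a deletion driven by the albumin promoter from early life. These LKO mice were of a mixed background, predominantly FVB, and carried the mTmG reporter. Their controls, labelled WT, are described in the study's methods as littermates without Cre. The methods do not say outright whether these controls carried the floxed alleles. At 0 h, 4 control and 4 LKO mice were sequenced singly. After a dose of 300 mg/kg APAP, each genotype had 1 library for each of 5 times (12, 24, 48, 72 and 96 h), made from the pooled RNA of 3 mice. In the HKO cohort, 3 mice with floxed E2f7 and E2f8 had received AAV8-TBG-Cre at 2 months of age, which acts in hepatocytes, and 3 had received AAV8-TBG-Null. All 6 were taken at 0 h. The methods give no separate background for this cohort, in which the study also examined the mTmG reporter. Levels are given as CPM, the read count relative to the library total, scaled within each cohort by the trimmed mean of M-values (TMM).

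Steroid hormones are made from cholesterol in the adrenal cortex and gonads. Star brings cholesterol into the mitochondrion, Cyp11a1 cuts its side chain to give pregnenolone, Cyp21a1 hydroxylates progesterone to deoxycorticosterone, and Cyp11b1 turns that into corticosterone, the main glucocorticoid of the mouse. Cyp17a1 leads towards androgens. In mammals the Cyp21 genes lie next to the complement C4 genes in the class III region of the major histocompatibility complex, in modules that arose by duplication. C4b encodes complement component C4, which the liver secretes into plasma and which is cleaved in the classical and lectin pathways. C4a encodes the closely related sex-limited protein of the mouse. Tnxb encodes tenascin X, a matrix protein.

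By GENCODE vM21 on GRCm38, the locus lies on chr17 in the order Tnxb (34670535-34719815, plus strand), C4b (34728380-34743882), Cyp21a1 (34801348-34804561) and C4a (34809092-34823464), the last 3 on the minus strand. A gap of 4530 bases separates Cyp21a1 from C4a, which lies upstream of it. The annotation gives C4a the biotype processed transcript and the other 7 genes protein coding. The pseudogenes Cyp21a2-ps and Tnxa lie between, and Tnxa, on the opposite strand, overlaps Cyp21a1 by 276 bases. The counts disregard strand and Tnxa is not among the genes used here, so Cyp21a1 may hold reads from that overlap that came from Tnxa. The steroid genes lie elsewhere: Star on chr8 (25806555-25815982), Cyp11a1 on chr9 (58006411-58027023), Cyp11b1 on chr15 (74834125-74841643) and Cyp17a1 on chr19 (46667165-46673172).

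The duplicated copies are similar but can be told apart by single reads over most of their length. C4b and C4a transcripts were identical at 96.14% of 5367 aligned bases, and Cyp21a1 and Cyp21a2-ps at 97.54% of 1382. The share of 100-base windows that also occur exactly in another gene was 16.5% for C4a and for C4b (each in the other), 6.18% for Cyp21a1, 2.96% for Tnxb and 11.6% for Cyp11b1, and no such window was found for Cyp11a1, Cyp17a1 or Star. STAR counts uniquely mapped reads only, so reads from such stretches drop out, and the levels of C4a, C4b and Cyp21a1 are uncertain to that degree. Stretches of 60 bases are shown for both pairs, from the GENCODE vM21 transcripts, because the reads that fall on such bases decide which gene is counted; capitals mark the bases that differ within a pair.
C4b, chr17:34735430-34735489, minus strand: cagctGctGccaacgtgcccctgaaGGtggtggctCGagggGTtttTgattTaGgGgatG
C4a, chr17:34816086-34816145, minus strand: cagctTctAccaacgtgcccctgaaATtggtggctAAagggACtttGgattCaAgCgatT
Cyp21a1, chr17:34801796-34801855, minus strand: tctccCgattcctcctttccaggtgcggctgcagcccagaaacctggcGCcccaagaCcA
Cyp21a2-ps, chr17:34719838-34719897, minus strand: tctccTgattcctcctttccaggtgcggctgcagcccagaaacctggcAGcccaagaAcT
The C4 stretch holds 13 differing bases and the Cyp21 stretch 5.

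Reads on genes ranged from 12665686 to 19499897 per library. A level of 3 counts, taken as the limit of detection, came to 0.143 to 0.262 CPM, and intervals around single libraries (exact Clopper-Pearson, 95%) cover counting error only. Albumin, the defining hepatocyte product, stood at 26617 to 99562 CPM. E2f7 and E2f8 counts over the whole genes do not check the deletion and are not used. Of the 8 genes, 6 passed the filter on low counts. Cyp11a1 and Cyp11b1 did not, and are described by their counts. Because these are whole livers, a lower level from fewer cells of a type and one from less RNA per cell cannot be told apart.

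Cyp21a1 ranged from 2 reads in 3 of the mice to 2651 reads in the control pool at 48 h, the value by which it was chosen. The 4 control mice of the LKO cohort had 2.06, 11.0, 9.08 and 0.183 CPM at 0 h, and the last of these values rests on 3 reads. The 4 LKO mice had 2.85, 0.110, 2.56 and 0.978 CPM. The groups overlapped, and each held a mouse at or under the limit of detection. In the HKO cohort, the 3 controls had 2.59, 3.56 and 2.04 CPM and the 3 HKO mice 0.118, 0.125 and 1.30 CPM. Here each HKO mouse lay below each control.

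After APAP, Cyp21a1 in the control pools had 1.69, 12.0, 135, 46.4 and 6.79 CPM from 12 to 96 h. The 48 h value (interval 130 to 141) was 24.3 times the mean of the 4 control mice at 0 h (5.58 ± 5.27 CPM, SD, n = 4) and 12.3 times the highest of them. The 72 h pool was 4.21 times that highest mouse, whereas the 12, 24 and 96 h pools lay within or near the range of the mice. On the log2 scale, with a prior count of 2, the changes were −0.66, 2.07, 5.56, 4.02 and 1.27 in time order. They are taken from the mean of the log2 values of the mice, which lies below the log2 of the mean CPM because of the mouse with 3 reads, and without that mouse the 48 h change was 4.48. At 48 h this was the 17th largest increase among 13328 genes.

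In the LKO pools, Cyp21a1 was also highest at 48 h, at lower levels, with 0.662, 3.78, 9.40, 3.23 and 0.163 CPM from 12 to 96 h. The 48 h value was 5.78 times the mean of the 4 LKO mice (1.63 CPM) and 3.29 times the highest of them. The changes from 0 h were −0.61, 1.71, 3.00, 1.49 and −2.08 on the log2 scale, and the 48 h increase ranked 96th among 13328. LKO mouse 2, with 2 reads, lowers the mean log2 value from which they are taken. Without that mouse the 96 h change was −2.87, and the changes at the other times would be lower as well. The last pool held 3 reads. The control pool exceeded the LKO pool 2.56-fold in the 12 h pair (counting interval 1.21 to 5.76), 3.16-fold in the next (2.41 to 4.20), and then 14.4-fold (12.3 to 17.0) and 14.3-fold (11.2 to 18.7) in the pairs of 48 and 72 h. At 96 h the ratio was 41.8, with an interval of 13.9 to 206 because of the 3 reads. These intervals do not hold the spread between mice. In single mice at 0 h that spread was 2.40 (SD on the log2 scale) among controls and 1.71 among LKO mice, rank 20 and rank 48 of 13328 genes.

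**Figure D1:**
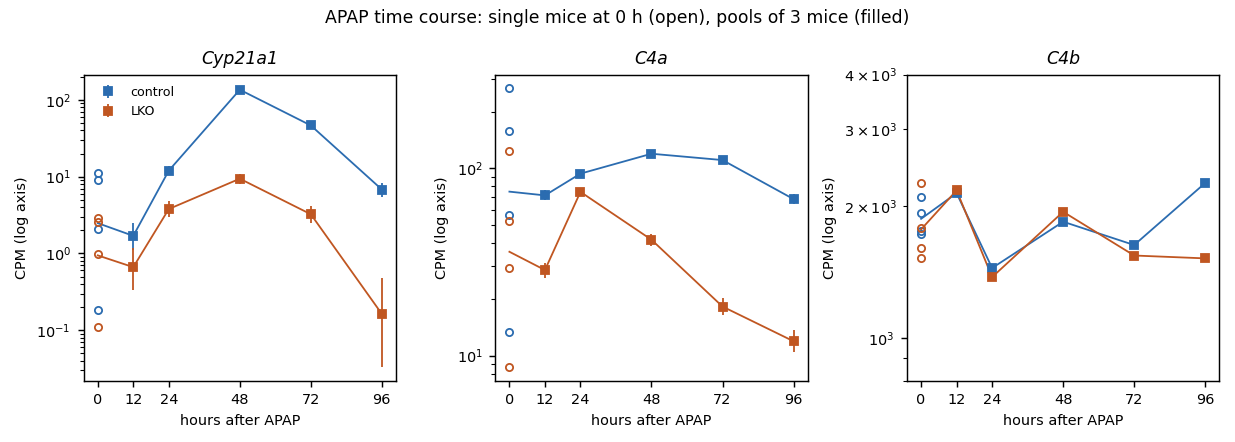
Levels of Cyp21a1, C4a and C4b (CPM, log axes) against hours after APAP in control (blue) and LKO (orange) livers. Open circles are single mice at 0 h, squares are pools of 3 mice with 95% counting intervals, and lines start at the geometric mean of the mice; Cyp21a1 reached 135 CPM in the control pool at 48 h and 9.40 CPM in the LKO pool, while C4b stayed between 1378 and 2261 CPM.

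Ordered by level, the control pools at 48 h and 72 h stood apart from the remaining libraries. The control pool at 24 h (12.0 CPM, interval 10.4 to 13.8) and the control mouse next in order (11.0 CPM, 9.34 to 12.9) did not differ beyond counting error, nor did the LKO pool at 48 h (9.40 CPM, 8.02 to 10.9) and a control mouse at 9.08 CPM (7.42 to 11.0). At the lower end, 5 libraries had 2 or 3 reads and cannot be ordered.

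No member was called between LKO and control mice at 0 h. Calls needed an adjusted p-value under 0.05 in edgeR's quasi-likelihood test over all genes and a fold change of at least 1.5, and the background share of genes called was 0% (352 of 12426 genes had an unadjusted p-value under 0.05, and DESeq2 called 3). The Cyp21a1 difference of −1.77 on the log2 scale (SE 0.95, adjusted p = 0.999) had an interval of −3.64 to 0.09. Intervals of fold changes are 95% normal approximations from the SE, which are too narrow for so few libraries. None of the 6 genes tested had groups that did not overlap, against 1.85% of all genes. In the HKO cohort, 1 of 6 members, C4a, was called, against a background of 0.96% (0.419% higher and 0.54% lower). Cyp21a1 differed there by −2.42 (SE 0.71, interval −3.81 to −1.03) with an adjusted p of 0.174. DESeq2 put the same difference at an adjusted p of 0.0188. Without HKO mouse 3 edgeR gave −4.40 with an adjusted p of 0.0121, from HKO mice with 2 reads each. These were the 2 of 14 alternatives that called it. The other 12 did not, with an edgeR adjusted p of up to 0.443. The LKO effect on Cyp21a1 minus the HKO effect was 0.65 (SE 1.47, edgeR adjusted p = 0.9998), and ranged from 0.17 to 2.63 over 22 alternatives. No member was called for this difference of effects, with a background of 0% (579 of 12945 genes had an unadjusted p-value under 0.05, and DESeq2 called 21).

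**Figure D2:**
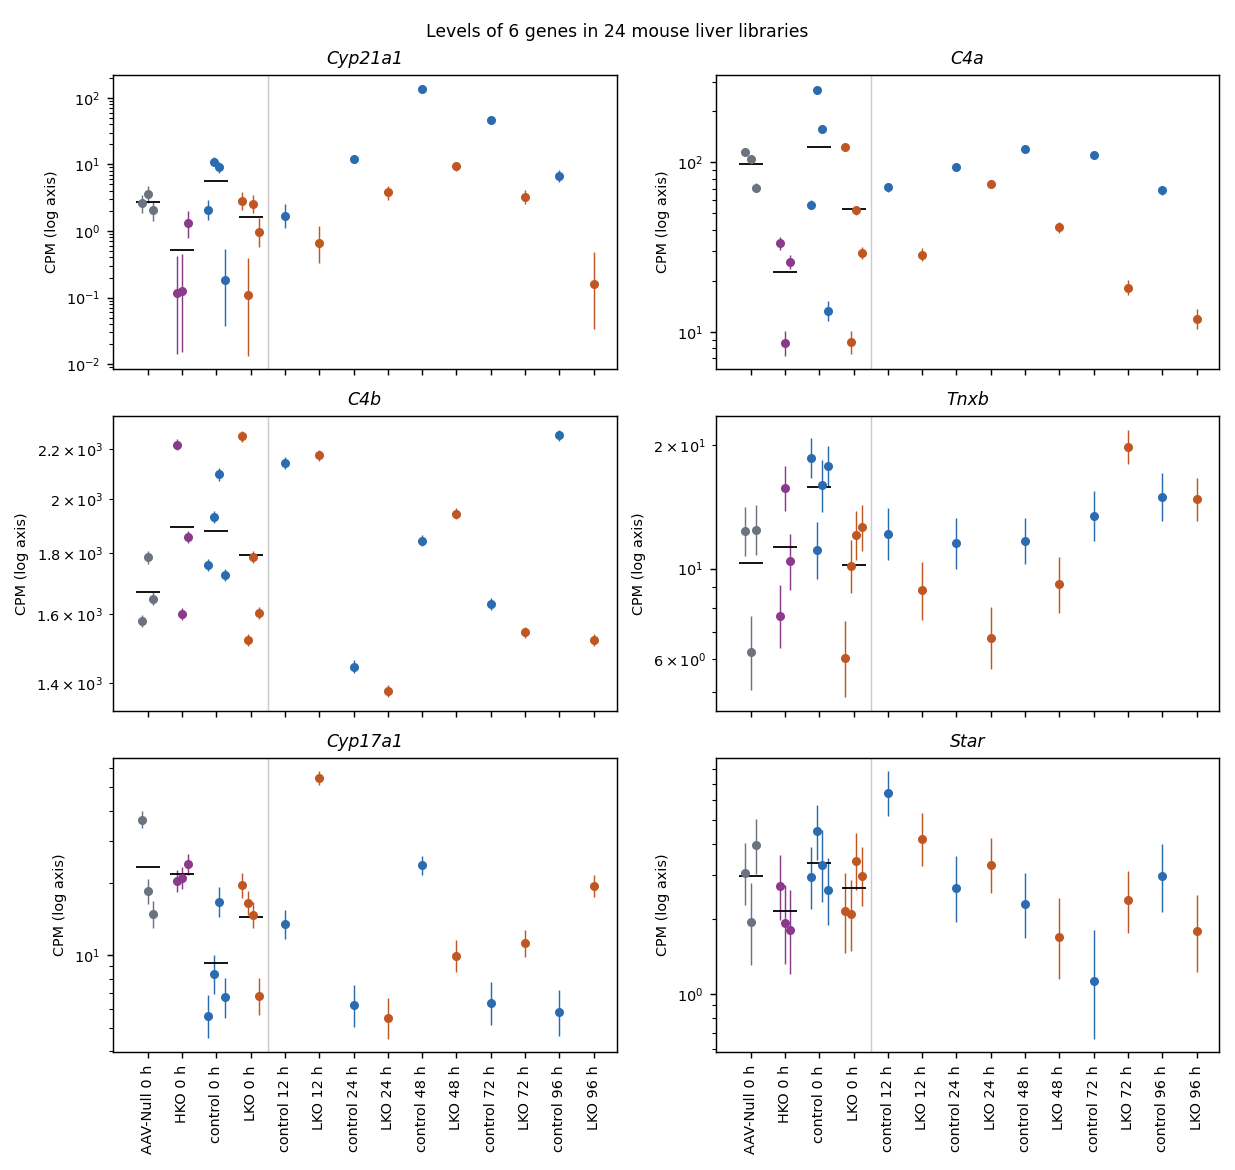
Levels of the 6 genes that passed the filter (CPM, log axes, a scale of its own in each panel) in all 24 libraries. Points are libraries with 95% counting intervals, horizontal lines are means of the mice of a 0 h group, and the vertical line separates single mice from APAP pools; C4a in HKO mice, at 8.63 to 33.3 CPM, lies below all 3 AAV8-TBG-Null controls, at 71.0 to 116 CPM.

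C4a, the next gene upstream of Cyp21a1, was lower in HKO than in control livers. The 3 controls had 116, 105 and 71.0 CPM and the 3 HKO mice 33.3, 8.63 and 26.0 CPM, with no overlap. With Cyp21a1, 2 of the 6 genes tested had groups that did not overlap in this cohort, against 18% of all genes. The fold change on the log2 scale was −2.10 (SE 0.40, edgeR adjusted p = 0.0476). The call was narrow: the adjusted p rose to 0.186, 0.167 and 0.0610 without control 1, 2 or 3 and to 0.0839 without HKO mouse 3.

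In the LKO cohort at 0 h, C4a varied widely within both genotypes. These mice were of a mixed background, and which alleles of the locus each carried was not examined here, for this or for any other C4a or Cyp21a1 comparison. The 4 control mice had 56.4, 266, 157 and 13.3 CPM, a 20.0-fold range, and the 4 LKO mice 123, 8.72, 52.1 and 29.2 CPM. The groups overlapped, and the difference of −1.21 (SE 0.84, interval −2.86 to 0.45) had an adjusted p of 0.999. Over 17 alternatives this difference ranged from −2.03 to −0.50. The SD between mice was 1.90 on the log2 scale among controls and 1.60 among LKO mice, rank 42 and rank 59 of 13328 genes, where the median gene had 0.28 and 0.27.

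After APAP, C4a stayed within the range of the mice of each genotype at 0 h. The control pools had 71.6, 93.5, 119, 110 and 68.4 CPM from 12 to 96 h. The LKO pools had 28.6, 74.7, 41.5, 18.3 and 11.9 CPM. The LKO pool was below the control pool at all 5 times, by −1.32, −0.32, −1.52, −2.59 and −2.51 on the log2 scale, as it was for 9.18% of genes. Over the 5 pairs of pools, with time as a block, the difference was −1.66 (SE 0.30, edgeR adjusted p = 0.0470), and C4a was the 1 gene called among the 5 tested, against a background of 0.579% (0.25% higher and 0.329% lower). The call was lost when both pools of 12, 48 or 72 h were left out (adjusted p = 0.104, 0.122 and 0.126). It was also lost with scaling by library size alone (0.0574), with a filter of at least 10 counts in every library (0.0509) and without the time block (0.764), so 6 of 14 alternatives ended it. There is 1 library per genotype and time, so the test measures the spread of the ratio over times, and the spread between mice at 0 h was of the same order as the difference. Cyp21a1 in the same fit had −3.17, given without a test.

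C4b had much the highest level and stayed nearly level throughout. At 0 h it ranged from 1726 to 2098 CPM in control, from 1523 to 2256 in LKO, from 1579 to 1786 in AAV8-TBG-Null and from 1600 to 2221 in HKO mice. The pools spanned 1378 CPM (LKO, 24 h) to 2261 CPM (control, 96 h). Its differences were −0.06 (SE 0.16) between LKO and control and 0.18 (SE 0.14) between HKO and control at 0 h, and −0.13 (SE 0.17) over the pools, with edgeR adjusted p-values of 0.999, 0.658 and 0.725. The interval over the pools was −0.46 to 0.20. Per kb of exon, C4b was 7.90 to 202 times C4a in the 14 mice at 0 h, a range set mainly by C4a.

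Tnxb, on the far side of C4b, was low and was not called in any comparison. It had 11.1 to 18.6 CPM in control, 6.05 to 12.6 in LKO, 6.25 to 12.4 in AAV8-TBG-Null and 7.68 to 15.8 in HKO mice. The LKO to control difference at 0 h was −0.63 (SE 0.24), with an unadjusted p of 0.0262 and an edgeR adjusted p of 0.999. Its pools lay between 6.79 and 19.9 CPM, both of these in LKO livers at 24 and 72 h. The LKO pool at 72 h was above each LKO mouse and 1.00 above their mean on the log2 scale, without a replicate.

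**Figure D3:**
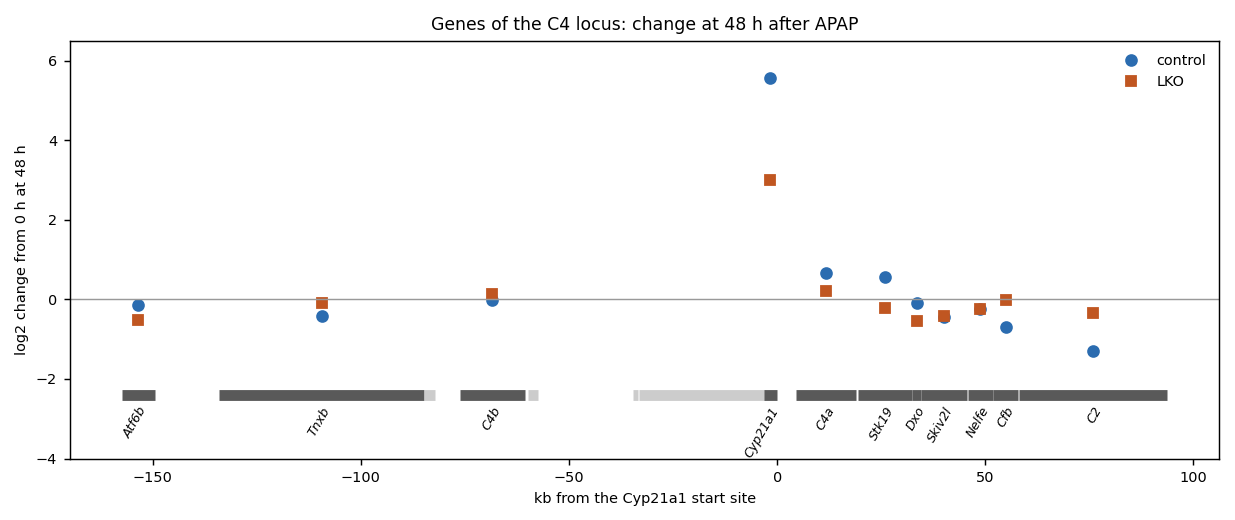
Change from 0 h to 48 h after APAP (log2 scale, prior count of 2) of the genes around Cyp21a1, placed at their midpoints in kb from the Cyp21a1 start site, for control (circles) and LKO (squares) pools. Dark bars are genes in the count tables and light bars pseudogenes outside them; Cyp21a1, chosen by this control pool, is at 5.56 and 3.00 and C4a at 0.67 and 0.21.

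Cyp21a1 was chosen by its level in the control pool at 48 h and is left out of the counts for that time. Of the other 5 members kept, 1 was at least 2-fold higher in the control pool at 48 h, Cyp17a1, against 14.2% of all genes, and 0 were lower, against 8.43%. In the LKO pool 0 were higher (8.12% of genes) and 0 lower (4.51%). Between the pools at 48 h, 2 of the 5 were at least 2-fold lower in LKO, C4a and Cyp17a1, against 8.92%, and 0 higher, against 6.76%. Among the neighbours, C4a changed by 0.67 in control and 0.21 in LKO pools, Stk19, next to C4a, by 0.55 and −0.22, C4b by −0.02 and 0.13, and Tnxb by −0.41 and −0.10. The list of locus neighbours held 30 genes in the tables, of which 28 were kept. Beside Cyp21a1, 1 of them was at least 2-fold higher in the control pool at 48 h (Ager, the receptor for glycation end products) and 3 were lower (C2, Hspa1a and Hspa1b), where the shares of all genes were 14.2% and 8.43%. The median was −0.15, against 0.02 over all genes. The heat shock genes Hspa1b and Hspa1a had the next largest changes, −3.35 and −2.66; they are near-identical copies, so their split is uncertain. In the LKO pool 0 were higher beside Cyp21a1 and 3 were lower, against 8.12% and 4.51%.

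At 0 h, in contrast, Cyp21a1 and C4a varied together from mouse to mouse. Over the 14 mice, log2 CPM of the pair had a Pearson r of 0.92 (permutation p = 2e-05, the smallest the 100000 resamples can give; adjusted p = 1e-04 over 5 relations) and a Spearman rho of 0.93 (permutation p = 4e-05, adjusted p = 2e-04). Without the 2 mice farthest from the median of C4a the r was 0.88, and after subtraction of group means it was 0.89. The permutations, here and within cohorts, ran across groups, so differences between groups enter the p-values. The r after group means was not tested. Some of the mice had only 2 or 3 reads of Cyp21a1. Within the 8 mice of the LKO cohort r was 0.98 (exact permutation p = 9.92e-05, adjusted p = 0.000496) and rho 0.98 (exact permutation p = 0.000397, adjusted p = 0.00198). Within the 6 mice of the HKO cohort r was 0.83 (exact permutation p = 0.0556, adjusted p = 0.278) and rho 0.77 (exact permutation p = 0.103, adjusted p = 0.514), so the relation did not pass the test there. Other genes had an r of the same size. Ranked by r with Cyp21a1 over the same 14 mice, C4a was 2nd of 12944 genes, after Cyp4v3 (0.94) and before Mup15 (0.92), a major urinary protein gene, and 65 genes had an r above 0.8. Mup20 had 0.80. Ranked by r with C4a, Cyp21a1 was 3rd, and 71 genes had an r above 0.8.

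The other 4 relations with Cyp21a1 did not pass the adjusted test over the 14 mice. C4b had r = 0.28 and rho = 0.40 (permutation p = 0.339 and 0.154, adjusted 0.564 and 0.256). Without the 2 mice farthest from its median, r was 0.72. Within the LKO cohort its r was 0.72 (exact permutation p = 0.0402, adjusted p = 0.0797; rho 0.88, exact permutation p = 0.00724, adjusted p = 0.0181) and within the HKO cohort −0.41 (exact permutation p = 0.417), a sign that turned without the 2 farthest mice (0.60, n = 4). Star had r = 0.50 and rho = 0.48 (permutation p = 0.0687 and 0.084, adjusted 0.172 and 0.21), and its r within the LKO cohort went from 0.70 to 0.29 without the 2 farthest mice. Tnxb and Cyp17a1 had r of −0.10 and −0.04 (permutation p = 0.728 and 0.906), and 0.14 and −0.21 without the 2 mice farthest from the median of each. After subtraction of group means over the 14 mice, r was 0.52 for C4b, 0.28 for Star, −0.35 for Tnxb and 0.34 for Cyp17a1. These values were not tested.

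**Figure D4:**
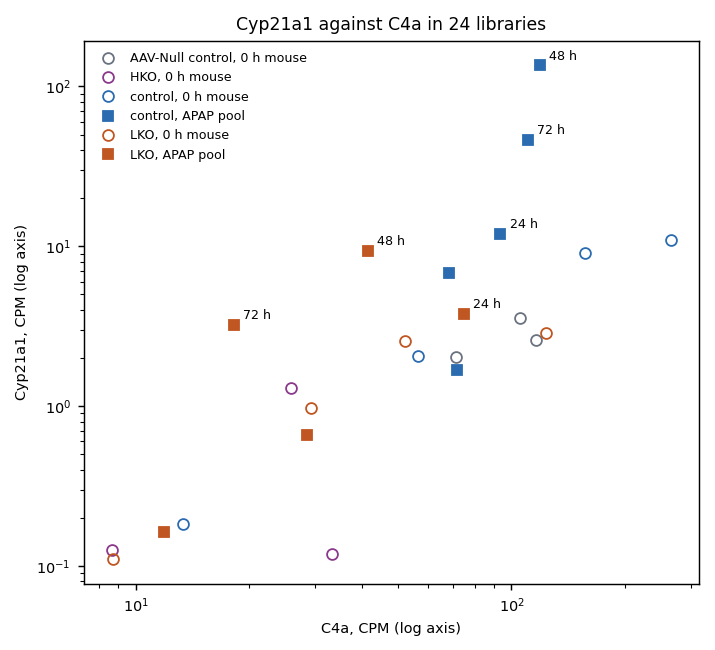
Cyp21a1 against C4a (CPM, log axes) in the 24 libraries; open circles are single mice at 0 h, filled squares APAP pools, and pools of 24, 48 and 72 h carry their time. The pools of 48 and 72 h lie above the band of the 0 h mice in both genotypes, with Cyp21a1 at 53.2% of the reads of the pair in the control pool at 48 h and at most 5.45% in any mouse at 0 h.

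The share of Cyp21a1 among the reads of the pair is given as a description, since the control pool at 48 h was the basis on which the gene was chosen. Cyp21a1 made up 0.353% to 5.45% of the reads on Cyp21a1 and C4a together in the 14 mice at 0 h, with a median of 3.02%. From 12 to 96 h, the share in control pools was 2.31%, 11.3%, 53.2% (exact interval 51.8% to 54.6%), 29.6% and 9.03%. In LKO pools it was 2.26%, 4.82%, 18.5% (16.0% to 21.2%), 15.0% and 1.35%. In both genotypes the pools at 48 and 72 h were above every mouse at 0 h. The intervals cover counting error in single pools. Per kb of exon, Cyp21a1 reached 63.3 CPM in the control pool at 48 h, 3.29 times C4a in the same pool, whereas in the mice at 0 h it was 0.0103 to 0.167 times C4a.

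Of the steroidogenic genes, Star and Cyp11a1 were no higher in the control pool at 48 h than in the mice. Star, which feeds cholesterol to the first enzyme, was detected at 17 to 95 reads per library, or 1.13 to 6.43 CPM. It stood at 2.30 CPM in the control pool at 48 h, under each of the 4 control mice (2.62 to 4.51 CPM). Its difference was −0.32 (SE 0.26) between LKO and control and −0.47 (SE 0.34) between HKO and control at 0 h, with edgeR adjusted p-values of 0.999 and 0.636.

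Cyp11a1, the side-chain cleavage enzyme, had 8 reads in all 24 libraries together, at most 2 in any of them, and 0 in 19. The control pool at 48 h was among those at 0. Cyp11b1, the last enzyme on the way to corticosterone, had 7 reads in all, of which 6 were in the control pool at 48 h (0.307 CPM), 1 in the LKO pool at 24 h and 0 in the other 22. That pool held 2651 reads of Cyp21a1.

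Cyp17a1, which makes androgen precursors, was expressed in every library, at 5.49 to 54.6 CPM. The control mice had 5.60, 8.37, 16.7 and 6.70 CPM and the LKO mice 19.6, 16.6, 14.8 and 6.79 CPM at 0 h. The difference of 0.65 (SE 0.37, edgeR adjusted p = 0.999) was not called, nor was that of −0.10 (SE 0.29, adjusted p = 0.925) in HKO livers. The control pools had 13.5, 6.20, 23.7, 6.33 and 5.80 CPM and the LKO pools 54.6, 5.49, 9.96, 11.2 and 19.4 CPM. The highest pool was thus at 48 h in controls, at 2.54 times the 0 h mean, and at 12 h in LKO, at 3.78 times, and the sign of the difference between genotypes changed over time. Over the pools it was 0.65 (SE 0.43, edgeR adjusted p = 0.450).

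Across all pools against 0 h in both genotypes, none of the 5 members tested was called, against a background of 14.2% (9.87% higher and 4.3% lower). In this fit the pools of the 5 times stood in for replicates, so its error holds the course over time. It does not measure the spread between mice at a given time after APAP. This applies to every value of this comparison given below. C4a had −0.51 (SE 0.48, adjusted p = 0.477), Cyp17a1 0.37 (SE 0.40, adjusted p = 0.542), and C4b, Tnxb and Star lay between −0.06 and −0.03 with adjusted p-values of at least 0.867 by edgeR.

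**Figure D5:**
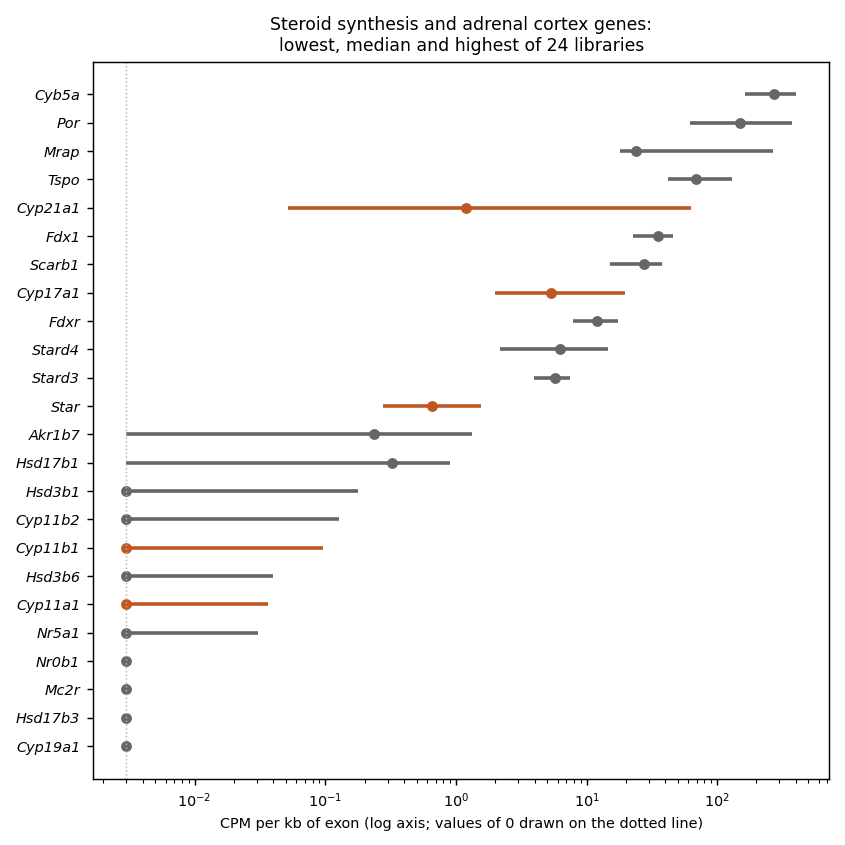
Levels of the steroid synthesis and adrenal cortex genes in CPM per kb of exon (log axis), with the lowest, median (point) and highest of 24 libraries; values of 0 are drawn on the dotted line and members of the studied set are in orange. Cyp21a1 spans 0.0516 to 63.3 CPM per kb, while Cyp11a1 and Cyp11b1 stay under 0.1.

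Of the 10 markers of the adrenal cortex, 7 had at most 7 reads in any library. Mc2r, the corticotropin receptor, and Nr0b1 had 0 reads in all 24 libraries. Cyp11b2 had at most 4 reads, Hsd3b1 at most 7 and Nr5a1, the master regulator of steroidogenic cells, at most 2 in any library. Akr1b7 reached 1.71 CPM, and Star and the last marker, Mrap, were detected throughout. In the control pool at 48 h, the library with most Cyp21a1, Cyp11a1, Hsd3b1, Nr0b1 and Mc2r were at 0, Cyp11b2 had 2 reads and Nr5a1 had 1. The summed level of the 10 markers was 31.5 to 45.0 CPM in the mice at 0 h and 369 CPM in that pool, of which Mrap made up 366 CPM. Markers of the gonads (8 genes) summed to 2.49 to 7.35 CPM and those of the adrenal medulla (6 genes) to 2.30 to 7.13 CPM.

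Mrap encodes the accessory protein of the corticotropin receptor. It stood at 28.5 to 41.8 CPM in the 14 mice at 0 h. The control pools had 311, 423, 366, 49.1 and 64.3 CPM from 12 to 96 h and the LKO pools 172, 326, 65.8, 45.8 and 48.9 CPM. It rose over all pools against 0 h, by 2.42 on the log2 scale (SE 0.46, edgeR adjusted p = 0.00305), in the fit where times stand in for replicates. At 48 h the LKO pool was 2.47 below the control pool on the log2 scale. Mrap was high from 12 h, before Cyp21a1.

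Of the 24 genes of the steroid synthesis list, 14 were kept in the fit of pools against 0 h. There 1 rose (Mrap, against 9.87% of all genes) and 1 fell (against 4.3%), Scarb1, the receptor that takes up cholesterol from high-density lipoprotein, by 0.64 on the log2 scale (SE 0.13, edgeR adjusted p = 0.00497). The median was 0.02, against 0.05 over all genes. In the control pool at 48 h, beside Cyp21a1, 2 were at least 2-fold higher (Mrap and Cyp17a1, against 14.2% of all genes) and 1 lower (against 8.43%), the sterol carrier Stard4, which changed by −1.58.

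Of the 18 genes that handle steroids in the liver, 1 rose and 3 fell over the pools, against 9.87% and 4.3% of all genes, with a median of −0.59 against 0.05 over all genes. The gene that rose was Sgk1, a kinase induced by corticosteroids, by 1.01 (edgeR adjusted p = 0.0228). Those that fell were Hsd3b5, a hydroxysteroid dehydrogenase of the male mouse liver, by 2.04 (adjusted p = 0.0299), Srd5a1, a steroid reductase, by 1.21 (adjusted p = 0.0379), and Nr3c2, the mineralocorticoid receptor, by 0.67 (adjusted p = 0.0268). At 48 h in controls, 8 of the 18 were at least 2-fold lower and 1 higher (Sgk1), against 8.43% and 14.2% of all genes. Hsd3b5 changed by −4.63, Serpina6, which encodes corticosteroid-binding globulin, by −3.93 and Akr1c6 by −2.37. In the LKO pool 4 were at least 2-fold lower at 48 h and 2 higher, against 4.51% and 8.12%, and the same 3 genes changed by −1.66, −1.86 and 0.10. At 72 and 96 h the median of the list was −0.80 and −0.14 in control pools, and 0.20 and 0.14 in LKO pools. Between LKO and control over the pools none was called, with a median of 0.46.

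The complement list, to which C4a and C4b belong, held 36 genes in the tables, 34 of them kept. Over all pools against 0 h, C6 and C9, which build the membrane attack complex, fell by 1.43 (SE 0.29, edgeR adjusted p = 0.00434) and 1.20 (SE 0.29, adjusted p = 0.00962), and C3ar1, the receptor for the C3a fragment, rose by 1.64 (SE 0.46, adjusted p = 0.0188). These 2 of 34 lower and 1 higher stand against 4.3% and 9.87% of all genes. In the control pool at 48 h, 10 of the 34 were at least 2-fold lower and 2 higher, against 8.43% and 14.2% of all genes, with a median of −0.64. The 3 with the largest changes were C6 (−2.51), C9 (−2.16) and C8b (−1.56). In the LKO pool none was at least 2-fold lower and 2 were higher, against 4.51% and 8.12%, with a median of 0.04. The median in control pools was 0.05 at 72 h and 0.29 at 96 h, and the LKO pool lay above the control pool at 48 h (median 0.64) and below it at 96 h (median −0.58). Tested over the 5 pairs of pools, C4a was the 1 gene of the list called between genotypes (lower, against 0.329% of all genes), a call that 6 of 14 alternatives ended, and the median was −0.03. In HKO livers at 0 h, C9 fell beside C4a, by 0.68 (SE 0.11, edgeR adjusted p = 0.0210), 2 of 34 against 0.54% of all genes.

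Markers of other liver cells also moved after APAP. The 7 macrophage markers summed to 96.2 to 422 CPM in the mice at 0 h, and to 255, 763 and 517 CPM in control and 357, 856 and 197 CPM in LKO pools at 48, 72 and 96 h. The 7 stellate and fibroblast markers summed to 107 to 247 CPM at 0 h, and to 341, 989 and 376 CPM in control and 318, 743 and 366 CPM in LKO pools. Both sums were highest at 72 h in both genotypes. The 4 neutrophil markers summed to at most 6.76 CPM at 0 h. From 12 to 96 h they summed to 9.41, 10.6, 23.7, 17.4 and 6.15 CPM in control pools and to 9.93, 25.9, 6.11, 2.90 and 1.35 CPM in LKO pools. Their highest sum was thus at 48 h among control pools and at 24 h among LKO pools. The 5 cholangiocyte markers summed to 8.81 to 17.0 CPM at 0 h, to 136 CPM in the control pool at 12 h, and to 25.4 and 12.9 CPM in the control and LKO pools at 48 h. Sox9 made up 127, 21.8 and 11.0 CPM of these sums, while at 48 h Epcam was at least 2-fold lower in the control pool and Krt19, Krt7 and Epcam in the LKO pool. The 5 endothelial markers summed to 115 to 228 CPM at 0 h and to 133 to 195 CPM in the pools. The 6 hepatocyte markers summed to 45013 to 109735 CPM in the mice and to 91426 and 96590 CPM in the pools at 48 h. In the control pool at 72 h they summed to 132792 CPM, above every mouse. The part of these cells in the Cyp21a1 levels was not tested.

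Genes with patterns most like that of Cyp21a1 were ranked by Pearson r of log2 CPM over the 18 libraries of the LKO cohort, as a description. The highest were Ccne1, which encodes cyclin E1 (0.90), Nol4l (0.86), Nucb2 (0.85), Reep5 (0.84) and Trim47 (0.84). C4a ranked 12th of 13327 genes (0.78; Cyp21a1 ranked 24th by likeness to C4a), Stk19 986th (0.52), C4b 5040th (0.15), Tnxb 7625th (−0.06), Cyp17a1 8768th (−0.16) and Star 8887th (−0.17). The libraries share scaling and, at the APAP times, single pools of each genotype. Ccne1 stood at 1.46 to 4.10 CPM in the control mice, 13.1 CPM in the control pool at 48 h and 4.59 CPM in the LKO pool, a narrower range than that of Cyp21a1.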

How the data were processed

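RNA-seq counts from 24 mouse liver libraries were analyzed. The authors deposited raw counts per gene from STAR, made on mm10 after trimming with Trimmomatic, by the study's methods. The annotation is not given in the sources used here. The column that disregards strand was used, since the 2 stranded columns had near-equal totals. Unassigned reads (4 entries of each file without a gene) were dropped; reads on no feature were 7.29% to 14.7% per library. After filtering (filterByExpr) and TMM scaling, edgeR 4.0.16 in R 4.3.3 gave quasi-likelihood F-tests (2-sided, Benjamini-Hochberg adjustment); time was a block for the pools. DESeq2 1.42.0, other scalings, filters, strand columns and omitted libraries were alternatives. The fits were tested on simulated counts. Log2 CPM used a prior count of 2. Relations used scipy 1.17.1. Coordinates and exon lengths come from GENCODE vM21, matched to 95.8% of symbols.

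The 8 genes and all gene lists were chosen with earlier results of these data known. Named genes were the 8 members, genes called in each list, the 3 of each list with the largest change at 48 h in control pools, and the 5 most like Cyp21a1; albumin, Krt7, Ager, C2, Stk19, Cyp4v3, Mup15, Mup20 and the adrenal markers Cyp11b2, Hsd3b1, Mc2r, Nr0b1 and Nr5a1 were named after their values were seen. The mice at 0 h are separate animals. The methods state 4 mice per genotype at 0 h, and the HKO cohort has 3 and 3. The virus was given intravenously by the labels and intraperitoneally by the methods.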

Additional observations from a re-analysis of the deposited data

Results flagged for a closer look

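At 96 h after APAP, the change of Cyp21a1 from 0 h was 1.27 on the log2 scale in the control pool and −2.08 in the LKO pool. These changes, taken from the mean log2 values of the mice, had opposite signs and were each over 2-fold, and the difference was not tested, because there is 1 pool per genotype. The control pool, at 6.79 CPM, lay within the range of the 4 control mice at 0 h (0.183 to 11.0 CPM), and was 1.22 times their arithmetic mean. The size of its change rests on control mouse 4, which held 3 reads: without that mouse it was 0.19. Without any one of the other 3 it was 1.14 to 1.92, and in LKO it was −2.87 to −1.64 without any one mouse, alternatives chosen after seeing the data. The LKO pool held 3 reads and lay within the range of the LKO mice (0.110 to 2.85 CPM). In 12 tests by Dixon's criterion on CPM, of each of 6 genes in each of the 2 groups of 4 mice, no mouse was flagged. With 4 mice on this scale the criterion can hardly flag a very low value, such as the 0.183 CPM of control mouse 4. It therefore does not decide whether that mouse stood apart.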

How the results depend on the processing

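The fold changes of Cyp21a1 kept their direction under the alternatives run. The change in the control pool at 48 h ranged from 4.48 to 6.22 on the log2 scale and the LKO to control ratio from −4.10 to −3.56. Scaling by library size alone moved the median of all genes by up to 0.32 (control pool at 48 h against 0 h). No member was called between LKO and control at 0 h, in the difference of the 2 effects, or (Cyp21a1 apart) between pools and 0 h, under any alternative run.

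The number of members called in HKO livers was 1, with 2 under DESeq2 and 0 to 1 when 1 mouse was left out. The number called over the pools was 1, with 0 under library size alone, under at least 10 counts in every library and without the time block, and 0 to 1 when a time was left out. The adjusted p of C4a ranged from 0.00402 to 0.186 in HKO livers and from 6.46e-07 to 0.764 over the pools. The causes were not tested. Over all genes, 119 were called in HKO livers, 327 under DESeq2, 255 with no filter beyond 1 count, 263 with the replicate block and 54 to 297 without 1 mouse. Over the pools 74 were called, 606 under DESeq2, 337 with no filter beyond 1 count, 42 with library size alone, 34 with at least 10 counts in every library, 0 without the time block (784 at an unadjusted p under 0.05 by edgeR) and 9 to 177 without 1 time. Between pools and 0 h 1888 were called, and 1180 to 2717 without 1 mouse or time.

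Small differences that were not called changed sign. With library size alone, C4b was 0.072 at 0 h (LKO), and over pools against 0 h C4b, Tnxb and Star were 0.033, 0.030 and 0.010. Star over the pools was 0.034 in the first stranded column. With 1 mouse or time left out, C4b (LKO, 0 h) ranged from −0.19 to 0.0056, Tnxb (HKO) from −0.20 to 0.34, Cyp17a1 (HKO) from −0.35 to 0.38, Star over the pools from −0.36 to 0.052, and the Star difference between the LKO and HKO effects from −0.095 to 0.38. In pools against 0 h, C4b ranged from −0.11 to 0.037, Tnxb from −0.19 to 0.045, Cyp17a1 from −0.065 to 0.57 and Star from −0.38 to 0.074.

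Replicate numbers did not pair the mice. Deviations of same-numbered mice correlated at −0.38, −0.19, 0.10 and 0.22 in the LKO cohort and 0.20, −0.03 and 0.10 in the HKO cohort. With the replicate block, the members called stayed at 0 (LKO) and 1 (HKO), and C4a had −2.22 in HKO livers and −0.81 in LKO livers. Depth limits Cyp21a1 in 5 libraries with 2 or 3 reads, and Cyp11a1 and Cyp11b1 throughout.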
